A study of Mus musculus with 28 samples.

Results

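Perineuronal nets are lattices of extracellular matrix around neurons, and the 10 genes described here encode their core parts and those of the looser matrix of the brain. They are the 4 lecticans *Acan*, *Bcan*, *Ncan* and *Vcan*, the 4 link proteins *Hapln1*, *Hapln2*, *Hapln3* and *Hapln4*, and the tenascins *Tnr* and *Tnc*. They were chosen by gene symbol, as the known members of these 3 families in brain matrix, with earlier results of these data known. All 10 were found among the 23038 genes of the deposited tables.

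Gene expression was measured by bulk RNA-seq of polyadenylated RNA in 28 libraries of mouse brain, labelled as BL6 strain background, the knock-in line having been bred onto C57BL/6J. *Nova1* hu/hu mice carry on both alleles a CRISPR/Cas9 knock-in that replaces isoleucine by valine at one position of the splicing regulator NOVA1, with silent changes used for genotyping, and *Nova1* wt/wt mice carry the unedited allele. The groups were late embryonic midbrain (E18.5, with 6 hu/hu and 6 wt/wt libraries) and, 3 weeks after birth (P21), midbrain and cortex with 4 libraries of each genotype. The study asked what the human form of NOVA1 changes in the brain. The edit is present in every cell of the mouse, and all groups share the same strain background. The ages were not measured in cortex, so age was compared in midbrain only.

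In this matrix, lecticans bind the polysaccharide hyaluronan at one end and tenascins at the other, link proteins lock the lectican to hyaluronan, and tenascin-R crosslinks the lecticans. Lecticans carry chondroitin sulfate chains, whose sulfation sets which growth factors and receptors they bind. The juvenile brain is known to exchange a loose, permissive matrix for a condensed one as nets form and critical periods close, and nets are best known around fast-spiking parvalbumin neurons.

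Total counts per library ranged from 18550922 to 45134998 with a median of 30560080. The region labels were checked with marker genes: the summed TPM (transcript levels per length, scaled to the same total in every library) of 6 midbrain markers had medians of 143 in embryonic midbrain, 175 in midbrain at P21 and 15.96 in cortex, and that of 6 cortex markers 61.0, 53.6 and 287. *Nova1* itself had a mean of 116 TPM in midbrain at E18.5, 48.9 in midbrain at P21 and 24.4 in cortex, and its level does not read the edited base. Summed choroid plexus markers differed between libraries of one tissue, from 12.05 to 3035 TPM in P21 midbrain and from 43.9 to 3655 TPM in E18.5 midbrain. In bulk tissue, fewer cells of a type and less RNA per cell cannot be told apart.

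The sequences upstream of the genes with the largest rise and the largest fall between E18.5 and P21 midbrain, *Hapln2* and *Tnc*, are shown with that of *Acan*, the defining proteoglycan of nets. Each is the stretch of 250 bases upstream of the annotated start in RefSeq on GRCm38.p6, 5′ to 3′ on the gene's strand, with the searched motif in capitals. For *Hapln2* it is chr3:88027512-88027761 on the minus strand, for *Acan* chr7:79052976-79053225 on the plus strand and for *Tnc* chr4:64047016-64047265 on the minus strand.
Hapln2: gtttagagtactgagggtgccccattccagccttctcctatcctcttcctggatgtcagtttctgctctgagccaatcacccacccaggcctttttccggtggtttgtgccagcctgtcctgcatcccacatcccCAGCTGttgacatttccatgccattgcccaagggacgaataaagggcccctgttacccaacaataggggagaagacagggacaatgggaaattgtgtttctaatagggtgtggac
Acan: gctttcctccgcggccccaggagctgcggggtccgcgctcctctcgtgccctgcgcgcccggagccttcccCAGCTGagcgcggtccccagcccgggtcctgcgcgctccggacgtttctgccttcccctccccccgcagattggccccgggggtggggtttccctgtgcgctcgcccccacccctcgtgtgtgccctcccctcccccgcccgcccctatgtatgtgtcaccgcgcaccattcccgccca
Tnc: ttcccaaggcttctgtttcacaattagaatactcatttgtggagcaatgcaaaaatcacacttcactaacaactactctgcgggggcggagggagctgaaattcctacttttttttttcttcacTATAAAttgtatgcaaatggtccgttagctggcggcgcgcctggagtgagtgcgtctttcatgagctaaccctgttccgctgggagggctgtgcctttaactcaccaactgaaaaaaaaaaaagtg
The capitals mark the E-box CAGCTG in *Hapln2* and *Acan* and the TATA box TATAAA in *Tnc*. Searched on both strands, CAGCTG was in 13.001% and TATAAA in 12.4% of the 32851 promoter windows of the same length, so neither is rare, and a match is a description of the letters only. Among the other matrix genes, *Ncan*, which fell with age, held both motifs, and *Hapln3* held TATAAA. The SOX core ACAAAG, also searched, was in 16.5% of all windows and in that of *Tnr*. The *Acan* window held 26 CpG dinucleotides, that of *Tnc* 8 and that of *Hapln2* 2, against a median of 6 over all windows. Promoter windows were found for 9 of the 10 genes, the one without an entry being *Hapln4*.

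The lecticans sit in the genome beside the link proteins. *Hapln1* and *Vcan* lie on chromosome 13 with 43476 bases between them, *Hapln2* and *Bcan* on chromosome 3 with 18382 bases, *Hapln3* and *Acan* on chromosome 7 with 1927 bases, and *Hapln4* and *Ncan* on chromosome 8 with 2222 bases, and 0 annotated RefSeq genes lie between the partners. *Tnr* lies on chromosome 1 from 159523729 to 159931729 and *Tnc* on chromosome 4 from 63959785 to 64047015 (GRCm38, which is mm10). Overlapping transcripts (antisense RNAs, pseudogenes or a miRNA) are annotated at *Hapln1*, *Ncan*, *Vcan*, *Tnr* and *Tnc*, and the sources do not say whether counting was by strand, so their reads cannot be told apart from those of these genes.

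The lecticans changed places between E18.5 and P21 midbrain. *Bcan* and *Acan* rose, *Ncan* and *Vcan* fell, and their summed level was 499 ± 53.1 TPM (SD, n = 12) at E18.5 and 592 ± 22.4 TPM (SD, n = 8) at P21. *Bcan*, brevican, is the smallest lectican and is made largely by astrocytes. It ranged from 118 to 207 TPM (median 161) in the 12 E18.5 libraries and from 419.6 to 475 TPM (median 453) in the 8 P21 midbrain libraries, which did not overlap, and it rose 3.29-fold (log2 fold change 1.72 ± 0.09 SE). *Acan*, aggrecan, rose 8.27-fold (3.05 ± 0.11 SE), from 0.661 to 1.64 TPM (median 0.836) at E18.5 to 5.93 to 7.29 TPM (median 6.83) at P21, also without overlap. Both gains leave *Acan* far below *Bcan* per transcript at P21.

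*Ncan*, neurocan, is the lectican of the developing brain, and it fell 2.10-fold (log2 fold change -1.07 ± 0.04 SE). Its 12 E18.5 libraries ranged from 264 to 345 TPM (median 303), all above the 8 P21 midbrain libraries at 115 to 131 TPM (median 127). *Vcan*, versican, which is found in migratory pathways of the embryo and at nodes of Ranvier in the adult, fell 3.98-fold (-1.99 ± 0.06 SE). It went from 31.4 to 42.4 TPM (median 35.4) at E18.5 to 7.35 to 8.31 TPM (median 7.79) at P21, again without overlap. The adjusted p of the 4 lecticans lay between 3.10e-21 and 4.77e-16 in edgeR's quasi-likelihood test, adjusted after Benjamini and Hochberg, over 20 libraries with genotype as a covariate.

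All 10 genes passed the threshold of an adjusted p under 0.1 between the ages, where 85.6% of the 16330 tested genes also passed, so passing is no mark of these genes. 6 of the 10 were higher at P21 (42.4% of tested genes) and 4 lower (43.3%). A change of at least 2-fold was found for 9 of the 10, against 30.6% of the tested genes. Of those, 6 were higher at P21 (15.9% of tested genes) and 3 lower (14.6%). The median log2 fold change of the 10 was 1.87 against -0.015 over all tested genes, and the median size regardless of direction was 2.54 against 0.62. The fitted fold changes use scaling factors of the whole library and can differ from ratios of mean TPM.

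**Figure D1:**
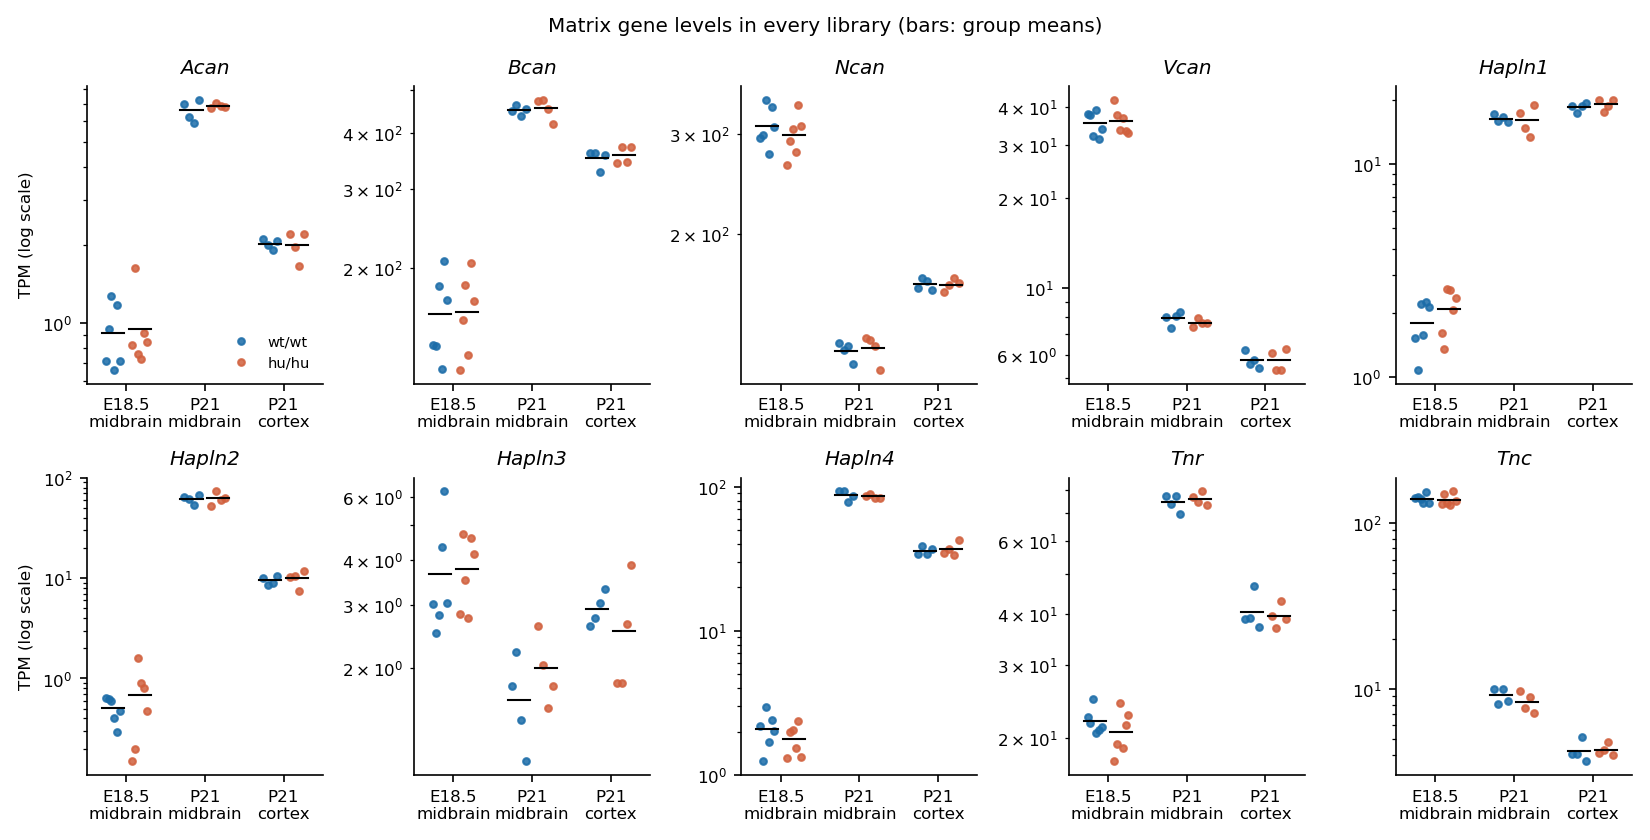
TPM on a log axis (y) of each of the 10 genes in the 3 tissues (x), with 1 point per library, wt/wt in blue and hu/hu in orange, and a bar at each group's mean. The P21 midbrain points of *Hapln2* and *Hapln4* (medians 61.8 and 86.1 TPM) lie far above the E18.5 points (0.535 and 1.99 TPM), those of *Tnc* far below (8.67 against 137 TPM), and the colours overlap in every tissue.

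The composition of the lecticans was compared as each gene's share of their summed TPM in a library. *Ncan* made up 61.1% ± 1.95 (SD, n = 12) in E18.5 midbrain and 21.2% ± 0.593 (SD, n = 8) in P21 midbrain. *Bcan* went the other way, from 31.5% ± 3.16 to 76.4% ± 0.566, a difference of 44.9 percentage points. *Vcan* fell from 7.29% ± 1.43 to 1.32% ± 0.0812, and *Acan* rose from 0.187% ± 0.0551 to 1.14% ± 0.0815. The size of a share rests on the deposited exon lengths. That of *Bcan* is 3808 bases where its longest GENCODE transcript has 3141, so a shorter model would put its share higher. In each of the 4 shares the libraries of the ages did not overlap, and the two-sided exact permutation p was 1.59e-05, the smallest that 12 against 8 libraries allow, in each of 4 tests. The shares of one library sum to 100%, so the 4 tests are not independent. The test also treats all libraries as exchangeable, although same-numbered libraries of the 2 genotypes deviated together within a tissue. The p therefore may count more independent units than there are.

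At P21 the midbrain held a larger share of *Bcan* and a smaller share of *Ncan* than the cortex. The *Bcan* share was 67.5% ± 1.12 (SD, n = 8) in cortex, 8.89 percentage points below midbrain, and the *Ncan* share 31.1% ± 1.12, 9.88 percentage points above it. The *Acan* share in cortex was 0.384% ± 0.0336 and the *Vcan* share 1.09% ± 0.0799. The exact permutation p of each of these 4 shares was 0.000155 (two-sided, unadjusted, 8 tests in all over both comparisons), the smallest that 8 against 8 libraries allow. The limit from treating libraries as exchangeable holds here too.

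**Figure D2:**
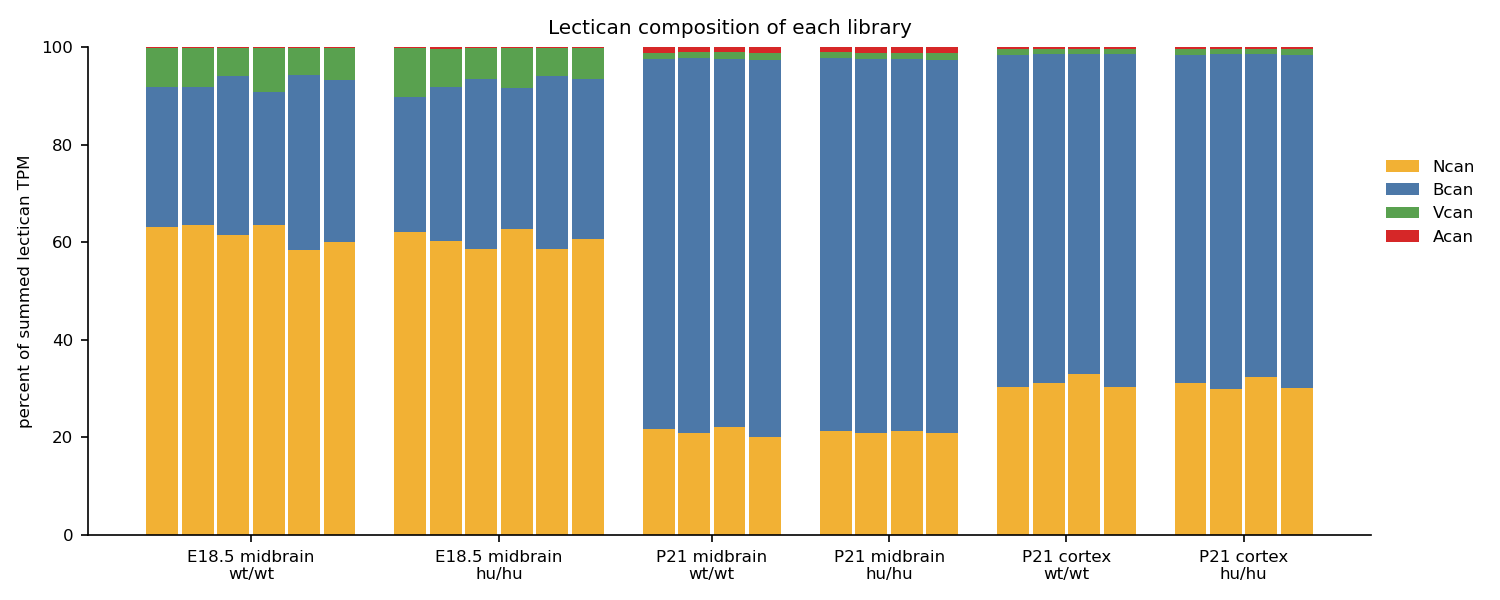
Each bar is 1 library, grouped by tissue and genotype (x), split into the percent of the summed lectican TPM (y) held by *Ncan*, *Bcan*, *Vcan* and *Acan*. *Ncan* takes the larger part at E18.5 (mean 61.1%) and *Bcan* at P21 (76.4% in midbrain, 67.5% in cortex), while bars of one tissue differ little between genotypes.

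The link proteins rose together apart from *Hapln3*. Their summed level was 8.17 ± 1.60 TPM (SD, n = 12) in embryonic midbrain, 166 ± 9.99 TPM (SD, n = 8) in midbrain at P21 and 67.7 ± 4.76 TPM (SD, n = 8) in cortex. *Hapln4*, also called Bral2, is the link protein of nets in the brainstem and cerebellum. It ranged from 1.24 to 2.97 TPM (median 1.99) at E18.5 and from 77.9 to 93.1 TPM (median 86.1) in P21 midbrain, and rose 51.7-fold (log2 fold change 5.69 ± 0.09 SE). *Hapln1*, the cartilage link protein that nets of the forebrain also use, rose 9.56-fold (3.26 ± 0.11 SE), from 1.08 to 2.59 TPM (median 2.09) to 13.4 to 18.8 TPM (median 16.2). The ages did not overlap for either gene.

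*Hapln2*, or Bral1, sits at nodes of Ranvier and is made by oligodendrocytes, and it had the steepest rise of the 10. It was detected at E18.5 with 2 to 25 counts per library, or 0.149 to 1.59 TPM (median 0.535), and reached 52.1 to 73.8 TPM (median 61.8) in P21 midbrain. The fitted rise was 119-fold (log2 fold change 6.89 ± 0.15 SE, 95% interval 96.0 to 147-fold). *Hapln3*, the link protein known from tissues outside the nervous system, stayed low and fell 1.79-fold (-0.84 ± 0.19 SE), with 2.495 to 6.23 TPM (median 3.27) at E18.5 and 1.09 to 2.61 TPM (median 1.78) in P21 midbrain, and its ages overlapped. The adjusted p was 6.30e-27 for *Hapln4*, 6.06e-24 for *Hapln2*, 7.07e-20 for *Hapln1* and 0.000187 for *Hapln3* in edgeR's quasi-likelihood test, adjusted after Benjamini and Hochberg.

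Oligodendrocyte markers moved in step with *Hapln2*. The summed TPM of 6 such markers ranged from 91.4 to 136 in embryonic midbrain, from 21434 to 24055 in midbrain at P21 and from 6298 to 7085 in cortex, with 0 of the 6 at 0 in any group and 1 of the 6 below a mean of 1 TPM at E18.5. Fast-spiking parvalbumin neuron markers (5 genes) ranged from 41.8 to 56.4, from 629 to 743 and from 262 to 279.7 TPM in the same tissues. *Acan*, *Bcan*, *Hapln2*, *Hapln4* and *Tnr* had that order of tissues. So did the oligodendrocyte sum above and the astrocyte sum that follows. The oligodendrocyte precursor sum (5 genes) also had it, with medians of 176, 692 and 321 TPM, although its *Pdgfra* had means of 43.1, 31.5 and 23.2 TPM. The neuron sum (6 genes) did not, with medians of 960, 3302 and 5519 TPM. Astrocyte markers (6 genes) ranged from 711 to 1067, from 3551 to 3972 and from 2552 to 2892 TPM. The largest part of that sum was *Aldoc* (means of 387, 2925 and 2063 TPM). *Aldoc*, *Gfap*, *Aqp4* and *Gja1* had the order of *Bcan*, while *Aldh1l1* had means of 192, 141 and 123 TPM and *Slc1a3* was at 132 TPM in midbrain at both ages and at 231 TPM in cortex. The part of these cell types in the results was not tested.

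Set against the lectican beside it in the genome, each rising link protein gained on its neighbour. The median ratio of *Hapln4* to *Ncan* was 0.00660 in midbrain at E18.5 and 0.7001 at P21. That of *Hapln1* to *Vcan* went from 0.0620 to 2.10, and that of *Hapln2* to *Bcan* from 0.00332 to 0.138. *Hapln3* to *Acan* ran opposite, from 4.21 to 0.257. The ranges of these ratios did not overlap between the ages, and they are descriptions of pairs whose members were each tested singly. In P21 cortex the medians were 0.222, 3.26, 0.0280 and 1.48 in the same order. The deposited exon length of *Hapln3* is 1433 bases where its longest GENCODE transcript has 3358. With the longest transcripts as lengths, an alternative chosen after seeing the data, the medians of *Hapln3* to *Acan* were 1.79 in embryonic midbrain, 0.1096 in midbrain at P21 and 0.6304 in cortex, so whether *Hapln3* exceeds *Acan* in cortex depends on the length used.

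**Figure D3:**
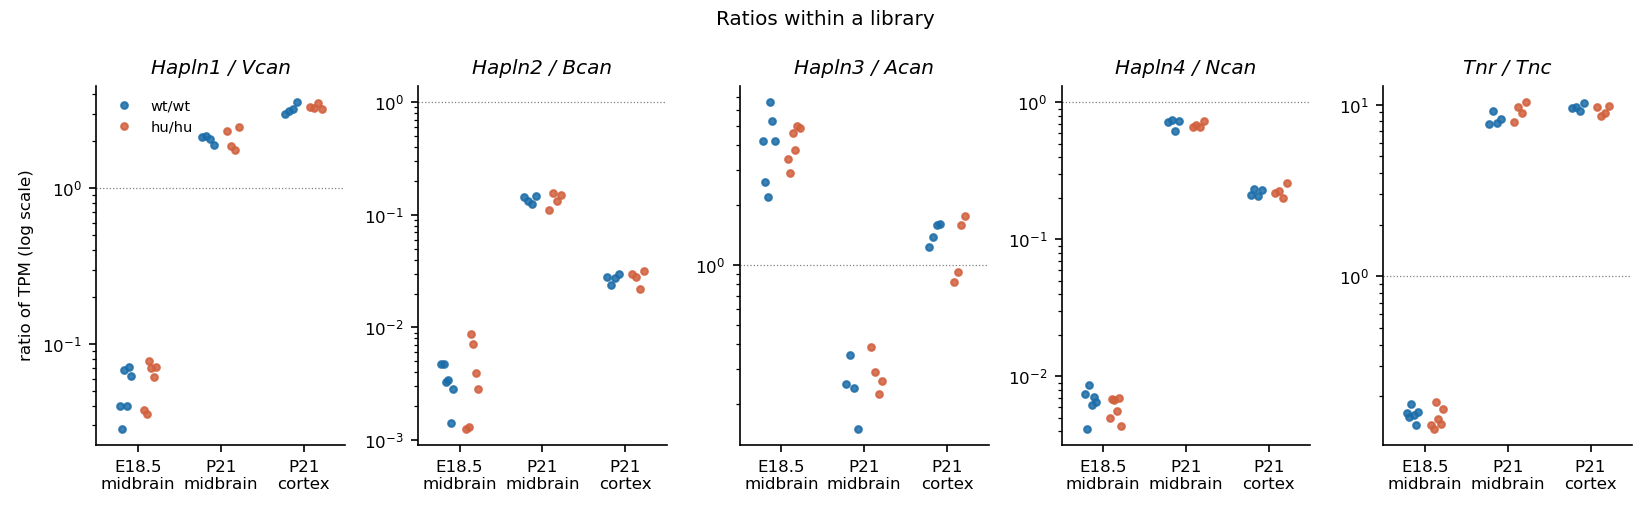
The ratio of the TPM of 2 genes in the same library on a log axis (y), by tissue (x), with 1 point per library, wt/wt in blue and hu/hu in orange, and a dotted line at a ratio of 1. *Hapln1* to *Vcan* and *Tnr* to *Tnc* cross 1 between E18.5 and P21 (medians 0.0620 to 2.10 and 0.154 to 8.58 in midbrain), *Hapln3* to *Acan* crosses it downward in midbrain (4.21 to 0.257), and the other 2 stay below 1.

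The tenascins exchanged places. *Tnc*, tenascin-C, is made by radial glia and young astrocytes of the developing brain, and *Tnr*, tenascin-R, by oligodendrocytes and some neurons of the maturing brain, where it crosslinks nets. *Tnc* ranged from 128 to 155 TPM (median 137) in E18.5 midbrain and from 7.13 to 10.02 TPM (median 8.67) in P21 midbrain, and fell 13.8-fold (log2 fold change -3.79 ± 0.06 SE, adjusted p = 2.82e-26 in edgeR's quasi-likelihood test, adjusted after Benjamini and Hochberg). *Tnr* rose 4.07-fold (2.02 ± 0.05 SE, adjusted p = 2.76e-23 in the same edgeR test), from 17.5 to 24.9 TPM (median 21.4) to 69.7 to 79.3 TPM (median 75.7). The ages did not overlap for either. The median ratio of *Tnr* to *Tnc* was 0.154 in embryonic midbrain, 8.58 in midbrain at P21 and 9.61 in cortex.

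The *Tnc* fall went with a fall in dividing progenitor markers, whose summed TPM (6 genes) ranged from 167 to 225 in embryonic midbrain, from 27.3 to 39.2 in midbrain at P21 and from 33.8 to 53.2 in cortex, with 3 of 6 below a mean of 1 TPM in P21 midbrain. Their part in the result was not tested. Comparisons of level between *Tnr* and *Tnc* rest on the deposited exon lengths, and that of *Tnr* is 5395 bases where its longest GENCODE transcript has 12202, so a longer model would put the *Tnr* level lower. With the longest transcripts the medians of *Tnr* to *Tnc* were 0.0644, 3.597 and 4.03 in the same tissues.

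Midbrain and cortex at P21 differed most in *Hapln2*, *Acan* and *Hapln4*, all higher in midbrain. *Hapln2* ranged from 7.52 to 11.8 TPM (median 10.2) in the 8 cortex libraries and was 5.999-fold higher in midbrain (log2 fold change 2.58 ± 0.08 SE). *Acan* ranged from 1.66 to 2.21 TPM (median 2.03) in cortex and was 3.18-fold higher in midbrain (1.67 ± 0.06 SE), and *Hapln4* ranged from 33.6 to 42.4 TPM (median 35.6) and was 2.26-fold higher (1.18 ± 0.04 SE). For these 3 genes the regions did not overlap. The adjusted p was 2.08e-19, 2.48e-17 and 9.39e-18 in the same order, in edgeR's quasi-likelihood test, adjusted after Benjamini and Hochberg over 16 libraries with genotype as a covariate.

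The tenascins were also higher in midbrain, *Tnc* 1.95-fold (log2 fold change 0.96 ± 0.08 SE) and *Tnr* 1.79-fold (0.84 ± 0.04 SE). In cortex *Tnc* ranged from 3.64 to 5.09 TPM (median 4.07) and *Tnr* from 36.9 to 46.6 TPM (median 39.0), below every midbrain library. *Vcan* was 1.29-fold (0.37 ± 0.04 SE) and *Bcan* 1.21-fold (0.27 ± 0.03 SE) higher in midbrain, with cortex values of 5.33 to 6.26 TPM (median 5.67) and 327 to 372 TPM (median 359). Those cortex libraries all lay below the midbrain libraries too.

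3 genes were higher in cortex. *Ncan* ranged from 158 to 168 TPM (median 163) in cortex, above every midbrain library, a 1.37-fold difference (log2 fold change of midbrain over cortex -0.46 ± 0.03 SE). *Hapln1* ranged from 17.4 to 20.1 TPM (median 18.7) in cortex and was 1.22-fold higher there (-0.29 ± 0.05 SE), with overlapping libraries. *Hapln3* ranged from 1.81 to 3.88 TPM (median 2.70) and was 1.59-fold higher (-0.67 ± 0.19 SE), with overlapping libraries and an adjusted p of 0.00306 in edgeR's quasi-likelihood test, adjusted after Benjamini and Hochberg. With hu/hu libraries only, the *Hapln3* difference was -0.42 and its adjusted p 0.184 in the same edgeR test.

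All 10 genes passed the adjusted p threshold between the regions, as did 75.6% of the 16345 tested genes. 7 were higher in midbrain (37.9% of tested genes) and 3 lower (37.7%). A difference of at least 2-fold was found for 3 of the 10, against 15.4% of tested genes, and all 3 were higher in midbrain (7.81% of tested genes), with 0 lower (7.56%). The median log2 fold change of the 10 was 0.60 against 0.00063 over all tested genes, and the median size regardless of direction 0.75 against 0.33. The age and region comparisons share the 8 P21 midbrain libraries.

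Ordered by level, *Acan*, *Bcan*, *Hapln2*, *Hapln4* and *Tnr* had the same order of tissues, E18.5 midbrain lowest, then P21 cortex, then P21 midbrain, with no overlap between neighbours. *Vcan* and *Tnc* ran from P21 cortex through P21 midbrain to E18.5 midbrain, and *Ncan* from P21 midbrain through P21 cortex to E18.5 midbrain, likewise without overlap. *Hapln1* was lowest in E18.5 midbrain, and its P21 tissues overlapped. *Hapln3* ran from P21 midbrain to E18.5 midbrain with overlap between all neighbours. How many of all genes share such an order or lack overlap was not counted. The adjusted p threshold was passed by 85.6% of tested genes between the ages and 75.6% between the regions. Separation is therefore not to be read as a mark of these genes.

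**Figure D4:**
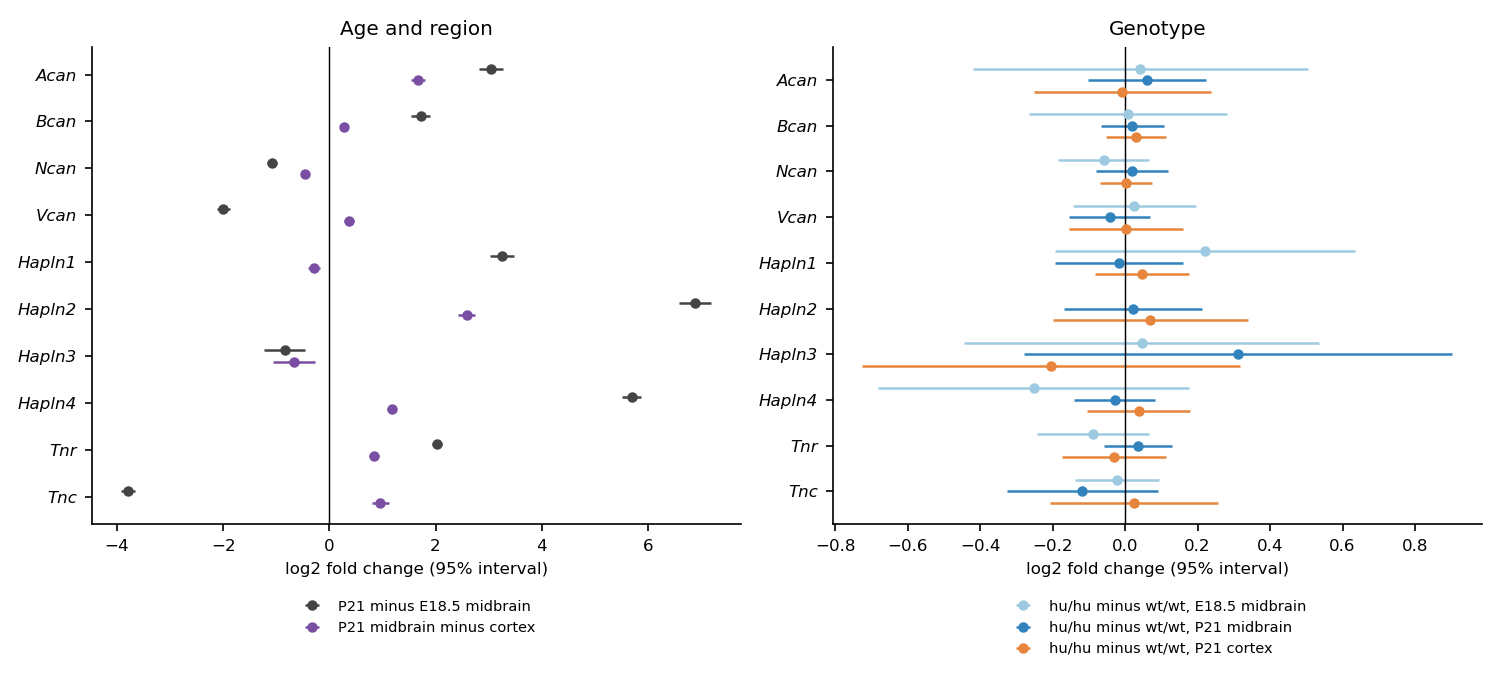
Log2 fold change (x) of each of the 10 genes (y) with its 95% interval, for age and region on the left and for hu/hu against wt/wt in the 3 tissues on the right. Age changes run from -3.79 for *Tnc* to 6.89 for *Hapln2*, while every genotype interval includes 0 (*Hapln2* was not tested at E18.5).

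Genotype was compared within each tissue, and in each of the 3 comparisons 0 of the 10 genes passed by edgeR's quasi-likelihood test. At E18.5, 9 of the 10 could be tested, since *Hapln2* was filtered out for its low counts. Over all genes the test also called 0% in each tissue, with 201 of 15540 genes (1.29%) at an unadjusted p under 0.05 in embryonic midbrain, 426 of 15972 (2.67%) in midbrain at P21 and 450 of 15767 (2.85%) in cortex, and 0 of the 10 matrix genes among them. DESeq2 called 0 of the 10 as well. The members' median log2 fold change of hu/hu over wt/wt was 0.0084 in embryonic midbrain, 0.019 in midbrain at P21 and 0.014 in cortex.

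The intervals show what size of difference these libraries leave room for in the fit that does not pair same-numbered libraries. Intervals of the paired fit are not given here. For *Bcan*, the most abundant lectican at P21, the log2 difference was 0.02 in P21 midbrain (95% interval -0.07 to 0.11) and 0.03 in P21 cortex (-0.05 to 0.11). For *Ncan* in P21 cortex it was 0.0031 (-0.07 to 0.08). *Acan* differed by 0.06 in P21 midbrain (-0.10 to 0.22) and by 0.04 in E18.5 midbrain (-0.42 to 0.50). The widest interval was that of *Hapln3* in P21 midbrain, 0.31 (-0.28 to 0.90), where it had 20 to 45 counts per library.

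Exact permutation tests on log2(TPM + 0.1) of the 10 genes in the 3 tissues, 30 tests in all and two-sided, gave unadjusted p from 0.303 to 0.939 in embryonic midbrain, from 0.314 to 0.971 in midbrain at P21 and from 0.343 to 1 in cortex. The smallest p these designs allow is 0.00216 with 6 against 6 libraries and 0.0286 with 4 against 4. These tests do not pair same-numbered libraries, and shared deviations of a pair can make them miss a difference. Exact sign flips over the 6 same-numbered pairs at E18.5 gave their smallest unadjusted p for *Hapln1*. It was 0.094, with 5 of 6 pairs higher in hu/hu, against 0.327 without pairing and a smallest possible 0.03125. The genotypes overlapped for all 10 genes in each tissue, where 0.0543%, 1.96% and 2.01% of genes with a TPM of at least 1 in some library did not overlap.

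2 genes moved the same way in all 4 same-numbered pairs of a P21 tissue. *Tnc* in P21 midbrain had 10.02, 8.07, 9.93 and 8.43 TPM in wt/wt libraries 1 to 4 and 9.72, 7.67, 8.91 and 7.13 TPM in the hu/hu libraries of the same numbers, lower in 4 of 4 pairs. *Hapln1* in P21 cortex had 18.69, 17.4, 18.66 and 19.3 TPM in wt/wt and 20.04, 17.5, 18.69 and 20.1 TPM in hu/hu, higher in 4 of 4 pairs. The groups overlapped in both, and the exact sign-flip p was 0.125 for each, the smallest that 4 pairs allow. With 10 genes and 3 tissues examined, these are given as values.

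Whether genotype changed the age or region difference was tested as an interaction. edgeR's quasi-likelihood test called 0 of the 10 matrix genes and 0% of the 16330 or 16345 tested genes in either, with 303 genes (1.86%) for age and 373 (2.28%) for region at an unadjusted p under 0.05, and 0 of the 10 among them. The largest interaction by size was that of *Hapln3* between genotype and region, 0.52 on the log2 scale (95% interval -0.25 to 1.30).

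Same-numbered libraries of the 2 genotypes resembled each other in *Bcan* at E18.5. From number 1 to 6, wt/wt libraries had 135, 133.6, 182, 119, 207 and 169.9 TPM, and hu/hu libraries 118, 153, 183, 128, 205 and 168 TPM. The number held from 35.04% (*Hapln2*) to 94.9% (*Bcan*) of the variance of the 10 genes around the genotype means, against a median of 71.5% over 16805 genes, and *Bcan*, *Vcan*, *Hapln1*, *Tnc* and *Ncan* lay above that median. Where same-numbered libraries are unrelated, this share equals the remainder on average. A share at or below the remainder is therefore no sign of likeness. The summed astrocyte markers in the same libraries were 730.3, 769, 980, 711, 1067 and 887 TPM in wt/wt and 766, 844, 930.1, 763, 964 and 898 TPM in hu/hu, and their part in the *Bcan* values was not tested. At P21 the share ran from 21.5% (*Vcan*) to 94.1% (*Ncan* and *Tnc*) in midbrain and from 56.3% (*Vcan*) to 92.7% (*Tnc*) in cortex, against medians of 59.1% and 61.3%. For *Bcan*, shown above for its high share at E18.5, it was 59.6% in P21 midbrain, close to the median, and 75.2% in P21 cortex.

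The genes whose pattern over the 6 group means was most like that of a matrix gene were found by the root-mean-square difference of centred log2(TPM + 1) among 16302 genes. *Hapln2* was most like *Gjb1* (0.19), a gap junction gene of myelinating cells, followed by *Gm98* (0.27) and *Erbb3* (0.32). *Hapln4* was most like *E030003E18Rik* (0.11), *Kcna1* (0.12), a potassium channel of axons, and *Tmem125* (0.12). *Tnc* was most like *Trim67* (0.10), *Dpysl3* (0.14), a gene of growing axons, and *Cd24a* (0.28).

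The closest 3 genes were *Atp10b*, *Rffl* and *Frmd8* for *Acan* (0.035 to 0.053), *Glra2*, *Triobp* and *Lrrc16b* for *Vcan* (0.024 to 0.033) and *Trnp1*, *Cnnm1* and *Phkg1* for *Hapln1* (0.038 to 0.060). A smaller value means a closer pattern, and a member with a wide range has larger values. With 6 means from 3 tissues, many genes share a pattern.

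The enzymes that build the chondroitin chains on lecticans moved in both directions with age. Of 11 measured, 6 were higher and 5 lower at P21, with a median log2 fold change of 0.30. Over all tested genes 42.4% were higher and 43.3% lower, with a median of -0.015, and the counts of this list and of those that follow are descriptions to be read against these shares, with no test of a list. *Csgalnact1*, which starts the chain, went from 6.12 ± 0.725 TPM (SD, n = 12) to 12.8 ± 0.618 TPM (SD, n = 8), a log2 fold change of 1.27 ± 0.07 SE, and *B3gat3*, which completes the linker to the protein, rose by 1.16 ± 0.04 SE. *Chsy1*, a chain polymerase, fell from 19.5 ± 1.62 to 7.22 ± 0.733 TPM (-1.22 ± 0.06 SE), and the linker enzyme *B3galt6* fell by 0.83 on the log2 scale.

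Of 8 chondroitin sulfotransferases 7 could be tested, and 4 were higher and 3 lower at P21 (median 0.79). *Ust*, which sulfates uronic acid, rose from 9.52 ± 1.16 to 29.0 ± 1.51 TPM (log2 fold change 1.81 ± 0.06 SE), and the 6-sulfating *Chst3* rose by 1.16 ± 0.07 SE. *Chst7*, also 6-sulfating, fell from 4.77 ± 0.904 to 1.60 ± 0.238 TPM (-1.37 ± 0.13 SE), and *Chst15*, which makes the doubly sulfated E unit, fell by 0.44 on the log2 scale.

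Of 10 hyaluronan genes, 7 were lower and 3 higher at P21 (median -0.57). *Has2*, a hyaluronan synthase, fell from 3.98 ± 0.609 to 0.566 ± 0.154 TPM (log2 fold change -2.60 ± 0.14 SE), and *Hmmr*, a hyaluronan receptor that also acts in the mitotic spindle, from 5.09 ± 0.618 to 0.359 ± 0.152 TPM (-3.63 ± 0.16 SE), beside the fall in dividing progenitor markers given above. *Tnfaip6*, which modifies hyaluronan, rose from 3.86 ± 0.861 to 29.6 ± 4.97 TPM (3.15 ± 0.11 SE), and *Hyal1*, a hyaluronidase, rose by 1.14 ± 0.14 SE.

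Of 14 matrix proteases and inhibitors 13 could be tested, and 4 were higher and 9 lower (median -0.36). *Adamts4*, a protease that cleaves aggrecan and brevican, rose from 7.22 ± 1.07 to 94.5 ± 9.23 TPM (log2 fold change 3.91 ± 0.07 SE), and the inhibitor *Timp4* from 31.5 ± 4.44 to 105 ± 7.48 TPM (1.94 ± 0.06 SE). *Mmp9* fell from 14.2 ± 2.04 to 3.56 ± 0.509 TPM (-1.78 ± 0.09 SE) and the membrane protease *Mmp14* by 1.15 on the log2 scale. Summed mural and meningeal markers (6 genes) ranged from 286 to 428 TPM at E18.5 and from 224 to 295 TPM in midbrain at P21, with 0 of the 6 below a mean of 1 TPM. *Col1a1*, *Col1a2*, *Lum* and *Pdgfrb* had lower means at P21, and *Acta2* and *Rgs5* higher ones. Their part in the values of *Mmp14*, and of *Dcn* given next, was not tested.

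Among 11 receptors and net-binding ligands, 4 were higher and 7 lower (median -0.16). *Nptx1*, a pentraxin of synapses, rose from 12.6 ± 1.11 to 43.6 ± 2.64 TPM (log2 fold change 1.99 ± 0.04 SE), and *Crtac1*, an antagonist of the Nogo receptor, rose by 1.18 ± 0.06 SE. *Otx2*, a homeoprotein that nets capture and that midbrain and choroid plexus cells express, fell from 47.3 ± 5.41 to 9.70 ± 2.43 TPM (-2.09 ± 0.11 SE), and *Rtn4rl2*, a Nogo receptor relative, from 8.16 ± 2.03 to 1.69 ± 0.422 TPM (-2.06 ± 0.17 SE). Of 7 other tenascins and chondroitin sulfate proteoglycans 6 could be tested, of which *Cspg4* (NG2, a marker of precursors) rose by 0.44 ± 0.09 SE and 4 fell, with *Ptprz1*, whose secreted form is phosphacan, going from 247 ± 30.8 to 105 ± 5.92 TPM (-1.04 ± 0.06 SE) and *Dcn*, decorin, falling by 0.82 on the log2 scale. The named changes of these lists with age had adjusted p of at most 3.34e-05 in edgeR's quasi-likelihood test, adjusted after Benjamini and Hochberg.

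Between P21 midbrain and cortex, 10 of 13 tested proteases and inhibitors were higher in midbrain and 2 lower (median 0.80), and of 11 receptors and ligands 2 were higher and 9 lower (median -0.94). Over all tested genes 37.9% were higher in midbrain and 37.7% lower, with a median of 0.00063, and the lists themselves were not tested. *Adamts4* had 94.5 ± 9.23 TPM (SD, n = 8) in midbrain and 30.8 ± 3.07 TPM (SD, n = 8) in cortex (log2 fold change 1.54 ± 0.06 SE), and *Adamts15* was higher by 1.29 ± 0.06 SE. *Adamts8* was lower in midbrain (-1.26 ± 0.09 SE), as was the inhibitor *Timp1* (-0.56 ± 0.17 SE). *Rtn4rl2* had 1.69 ± 0.422 TPM in midbrain and 48.3 ± 5.84 TPM in cortex (-4.91 ± 0.11 SE), and the pentraxin receptor *Nptxr* 119.8 ± 5.29 and 582 ± 16.7 TPM (-2.35 ± 0.03 SE). *Otx2* was higher in midbrain (1.59 ± 0.14 SE), and *Ptprf*, a receptor phosphatase for chondroitin sulfate, slightly so (0.09 ± 0.03 SE).

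Of the chain enzymes, 1 of 11 was higher in midbrain and 7 lower (median -0.13). These counts and those of the next lists are descriptions beside 37.9% higher and 37.7% lower over all tested genes. *Xylt2*, which begins the linker, was higher (0.79 ± 0.05 SE), and *Chsy3* (-1.01 ± 0.08 SE) and *B3gat3* (-0.28 ± 0.03 SE) were lower. Of the 7 sulfotransferases tested, 3 were higher and 2 lower (median 0.065). *Chst3* had 6.26 ± 0.399 TPM in midbrain and 2.38 ± 0.106 TPM in cortex (1.32 ± 0.06 SE) and *Chst14*, which sulfates dermatan chains, was higher by 0.48 ± 0.15 SE. *Chst15* had 9.36 ± 0.762 and 19.98 ± 1.28 TPM (-1.17 ± 0.05 SE), and the 4-sulfating *Chst11* was lower by a small amount (-0.10 ± 0.03 SE).

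Of 10 hyaluronan genes, 6 were higher in midbrain and 1 lower (median 0.57), with *Tnfaip6* at 29.6 ± 4.97 against 9.999 ± 1.17 TPM (log2 fold change 1.49 ± 0.09 SE) and the hyaluronidase *Tmem2* higher by 0.66 ± 0.05 SE. Among 7 other tenascins and proteoglycans, 2 were higher, *Cspg4* (0.42 ± 0.05 SE) and *Ptprz1* (0.35 ± 0.03 SE), and 1 lower, *Cspg5*, neuroglycan C, with 56.9 ± 2.27 against 120.6 ± 4.01 TPM (-1.16 ± 0.03 SE). The named differences of these lists between regions had adjusted p of at most 0.0128 in edgeR's quasi-likelihood test, adjusted after Benjamini and Hochberg. In the genotype comparisons, 0 genes of the 6 lists passed the threshold.

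**Figure D5:**
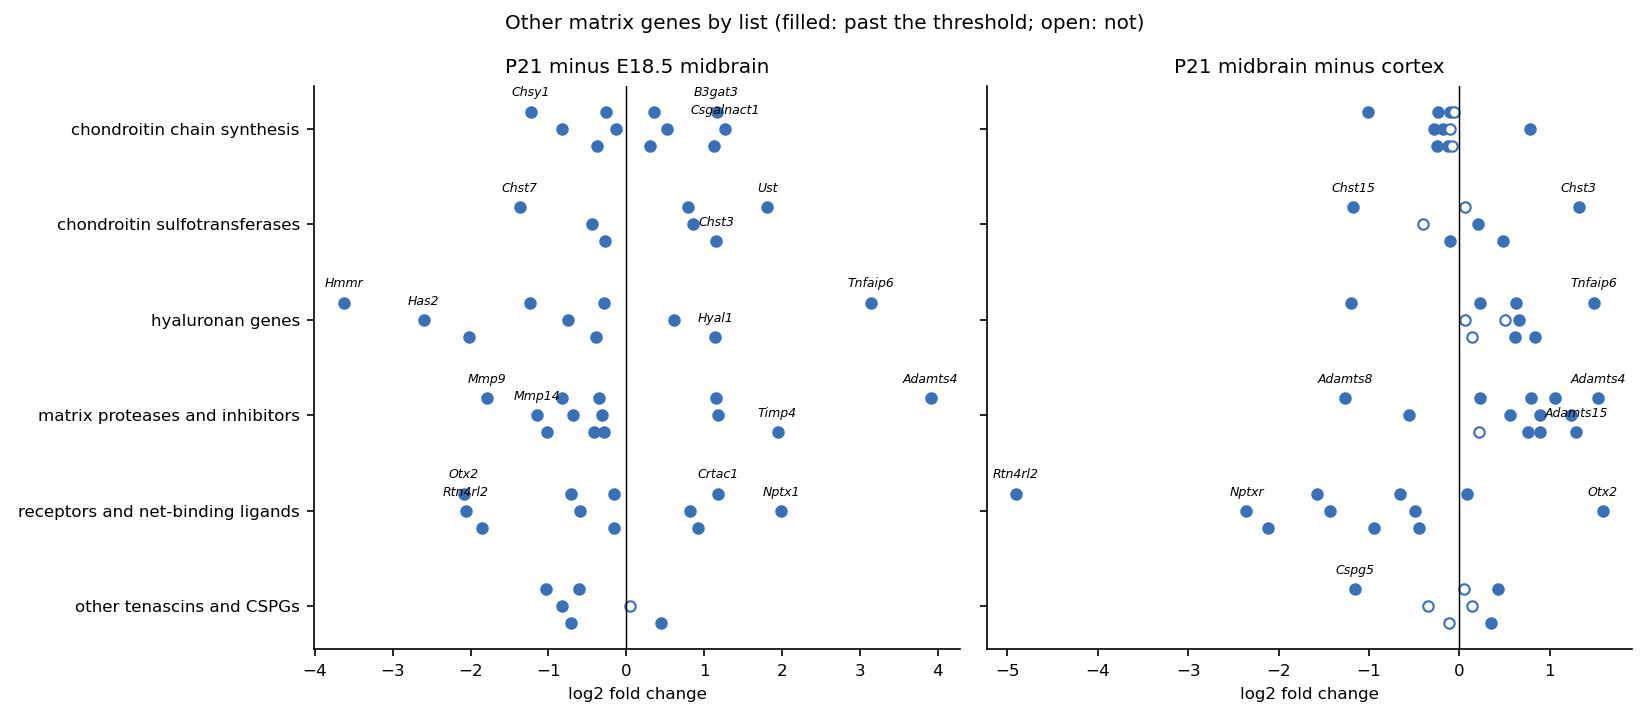
Log2 fold change (x) of the genes in 6 lists of other matrix genes (y), for P21 over E18.5 midbrain on the left and P21 midbrain over cortex on the right, with 1 point per gene, filled where the gene passed the threshold, and the rule's larger changes named. *Adamts4* (3.91) and *Tnfaip6* (3.15) stand out to the right with age, *Hmmr* (-3.63) to the left, and *Rtn4rl2* (-4.91) to the left between regions.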

How the data were processed

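Bulk RNA-seq of polyadenylated RNA from 28 mouse brain libraries was analysed. The authors aligned paired-end reads to mm10 with OLego and counted them with Quantas. The authors deposited, for each library and 23038 genes, expected counts, exon lengths and RPKM. The deposited RPKM values followed from the counts and exon lengths within a relative difference of 2.27e-13 and were not used otherwise. The annotation version and the use of strand are not given in the sources used here. The 10 genes, the lists of other matrix genes and the markers were chosen with earlier results of these data known.

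TPM values were computed from the unrounded expected counts and the exon lengths. Expected counts, not whole for 751 to 2715 genes per library, were rounded for the tests. Genes were tested with edgeR 4.0.16 (glmQLFit and glmQLFTest, TMM factors, filterByExpr; R 4.3.3) on the whole table, and called at p under 0.05 with p adjusted after Benjamini and Hochberg under 0.1. The study describes its replicates as biological. The labels number them without naming animals, and p-values measure the spread between these libraries. No 2 libraries of a group were the same within counting error.

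Shares and member levels were compared by exact permutation over libraries. Within each list, the called genes with the 2 largest rises and the 2 largest falls at a mean of at least 1 TPM in 1 group were named, as was any list gene called between genotypes. Likeness used the 3 closest genes for members whose group means spanned more than 2 on the log2 scale. The numbers pair the genotypes: deviations of same-numbered libraries from their group means had correlations of 0.17 to 0.39 (E18.5), 0.20 to 0.23 (midbrain at P21) and 0.17 to 0.25 (cortex). Positions came from RefSeq and GENCODE on GRCm38. The fits were also run on simulated counts. These were drawn independently for each library, so that run does not cover the likeness of same-numbered libraries. Alternatives were RLE factors, DESeq2 1.42.0, other filters and thresholds, a replicate block, 1 genotype at a time, all 28 libraries in 1 fit, each library left out and, added later for ratios between genes, the longest GENCODE transcripts as lengths.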

Additional observations from a re-analysis of the deposited data

Results flagged for a closer look

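Each of the 10 genes was examined in each of the 6 groups for a library that stood apart from the rest by Dixon's criterion, 60 groups in all, where chance flags about 1 in 20 groups. 2 libraries were found. *Acan* had 1.64 TPM in E18.5 midbrain hu/hu replicate 2, against 0.731 to 0.919 TPM in the other 5 libraries of that group. *Bcan* had 327 TPM in P21 cortex wt/wt replicate 3, against 358 to 361 TPM in the other 3, whose spread was narrow.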

How the results depend on the processing

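Age and region differences of the 10 genes kept their direction and their side of the threshold under RLE factors, DESeq2, other filters, an adjusted p under 0.05, the replicate block, all 28 libraries in 1 fit, either genotype alone and each library left out, with 1 exception: *Hapln3* between regions with hu/hu libraries only (-0.42, adjusted p = 0.184 in edgeR's test, against 0.00103 to 0.0115 in the other 24 alternatives). At least 10 counts in every library left *Hapln2* out of the age fit. The lectican shares kept theirs under shares of counts, either genotype alone and each library left out.

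Between genotypes, calls in P21 midbrain changed from 0 genes to 1 lower gene with DESeq2 (*Gkn3*) and to 1 higher and 3 lower genes with the replicate block that pairs the libraries (*Cdr1* higher, *Gabra6*, *Cbln3* and *Mybpc3* lower, named after their values were seen). None of these is among the 10 matrix genes, and the block changed no other call. The study itself reported *Gkn3* as lower in P21 midbrain of hu/hu mice, by edgeR at the same thresholds. Its methods do not name the edgeR test, and the one used here did not call that gene. Between the ages, correlations of same-numbered libraries had both signs (-0.15 to 0.15). Between regions all 8 were negative (-0.20 to -0.10), against a median of 0.10 for libraries of other numbers. The regions are therefore not unrelated by number, and what a number marks is not given. The block gave 6958 higher and 7019 lower genes with age, against 6919 and 7064 without it. Between regions it gave 6161 and 6135, against 6194 and 6169. Genotype differences of the matrix genes near 0 changed sign in some settings without passing the threshold. With all 28 libraries in 1 fit, *Ncan* (-0.0013) and *Vcan* (-0.0023) in P21 cortex did. With 1 library left out, the log2 ranges in E18.5 midbrain were *Acan* -0.17 to 0.15, *Bcan* -0.07005 to 0.10, *Vcan* -0.033 to 0.065, *Hapln3* -0.047 to 0.27 and *Tnc* -0.052 to 0.0030. In P21 midbrain they were *Bcan* -0.0057 to 0.059, *Ncan* -0.0095 to 0.062, *Hapln1* -0.10 to 0.054, *Hapln2* -0.076 to 0.10 and *Hapln4* -0.078 to 0.0075. In P21 cortex they were *Acan* -0.062 to 0.073, *Ncan* -0.014 to 0.018, *Vcan* -0.034 to 0.043, *Hapln2* -0.0096 to 0.19, *Hapln4* -0.029 to 0.077, *Tnr* -0.075 to 0.053 and *Tnc* -0.046 to 0.14. For genotype by age they were *Acan* -0.081 to 0.24 and *Bcan* -0.078 to 0.10, and for genotype by region *Acan* -0.0073 to 0.12, *Bcan* -0.036 to 0.0305, *Ncan* -0.0090 to 0.059, *Hapln1* -0.14 to 0.0068, *Hapln2* -0.16 to 0.035, *Hapln4* -0.12 to 0.0017 and *Tnr* -0.015 to 0.12. The cause was not tested. Permutation counts of genes past 0.05 with 1 library left out, or by sign flips over pairs, were not made at P21, since 4 against 3 libraries (smallest p 0.0571) and 4 pairs (0.125) cannot pass 0.05. Depth limits *Hapln2* at E18.5 (2 to 25 counts per library) and *Hapln3* (20 to 67).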
